A study of Saccharomyces cerevisiae with 14 samples.

Results

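The values described here are the changes of 16000 cofilin variants over the last interval of a competition in glucose, T3 against T2. They come from 6 libraries, T3 and T2 of 3 independently performed screens, out of the 14 samples of the series. All 16000 variants were kept, and 6260 of them had at least 100 reads at T2 in each screen. These 6260 are called well counted below. The minimum rests on T2, which is one side of the comparison.

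Every culture was Saccharomyces cerevisiae of a strain whose own cofilin gene, COF1 (YLL050C, chromosome XII, 39804 to 40414), stands under a promoter that doxycycline (DOX) shuts off. Cells had been transformed with a pool of forms of human cofilin-1, on a constitutive high-copy plasmid with an N-terminal His tag. They also carried a plasmid for the kinase LIMK1 under a galactose promoter, which glucose keeps off. How many forms a cell held is not stated in the sources. Cultures at T2 and T3 grew in 2% glucose with 10 mg/L DOX. The T3 culture had been diluted from the T2 culture of the same screen and grown on, so that T3 and T2 differ in time only. T0 was taken from the culture in raffinose with 10 mg/L DOX, just before it was diluted into glucose, and T1 precedes T2. T1 against T0 thus also spans a change of carbon source. DOX and both plasmids are shared by all these groups, and forced expression of a human protein in yeast limits them as a model.

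Cofilin is a small actin-binding protein that severs and disassembles actin filaments. Yeast cannot grow without it, and the human protein can stand in for the yeast one. The N-terminal tail lies in the surface that contacts actin. It carries Ser3, the residue that LIM kinases phosphorylate to switch cofilin off in animal cells. In this competition a variant that lets its host divide faster takes a growing share of the reads.

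The library held all 20 residues at positions 2, 4 and 5 and either Ser or Thr at position 3, counted from the initiator Met. A variant is written by its 4 residues, so that the human sequence Ala-Ser-Gly-Val is ASGV. The oligonucleotide that built the library is shown first because it places the variable codons, in capitals here as the codons of ASGV.

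ASGV oligonucleotide: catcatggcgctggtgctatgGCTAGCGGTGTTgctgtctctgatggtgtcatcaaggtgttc

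The next sequences are the deposited codons 2 to 5 of variants at both ends of the late change and of the most abundant variants. Codons 4 and 5, where the residue terms below were largest, are in capitals.

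VTGI: gttaccGGTATC
HTGI: cataccGGTATC
PTFM: ccgaccTTCATG
SSGV: tctagcGGTGTT
ASAC: gctagcGCTTGC
NTGS: aacaccGGTTCT
TSWF: actagcTGGTTC

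The T3 libraries held 27600781, 43927281 and 21795852 reads in screens 1 to 3, against 24313537, 61265998 and 28832362 in the T2 libraries. All variants were seen at T3 in screens 1 and 2, and 7 had no read in screen 3, against 3 at T2 there. Between screens, the log2 changes of the well-counted variants correlated with r of 0.323 to 0.432, and those of all variants with 0.109 to 0.298. These are descriptions across variants, which share libraries and are not independent replicates.

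The question asked of the late interval is which sequences still gained or lost share once the early sorting was over. Well-counted variants that joined Gly4 to Val, Ile, Leu or Met at position 5 were mostly higher at T3. Of them, 75.5% were higher in all 3 screens, against 12.1% of all well-counted variants. The share was 85% with Ile5 and with Val5, 72.5% with Met5 and 59% with Leu5. Glu, Arg and Lys at position 4 and Gln, Ser and Pro at position 5 had negative residue terms. These terms rest on a minimum of reads set on T2, a side of the comparison. With the minimum of 100 reads set on T1, 1 of 62 terms was called, and Glu4 had 0.0011. Single variants did not pass the test over all 16000. edgeR's quasi-likelihood test with the screen as a block called 0 higher and 0 lower at T3 (background 0%), and the lowest adjusted p was 0.0723. At an unadjusted p under 0.05 there were 2317 variants (14.5%), of which 1989 were well counted. limma called 0, with 1807 at an unadjusted p under 0.05, and DESeq2's Wald test called 49 higher (0.306%) and 1366 lower (8.54%). Without screen 2, edgeR called 135 higher (0.844%) and 147 lower (0.919%), without screen 1 it called 0, and without screen 3 it called 1.

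The count depends on how many rarely read variants enter the adjustment. With a mean of at least 200 reads over the 6 libraries, a filter chosen after seeing the data, edgeR called 103 of 6448 higher (1.6%) and 584 lower (9.06%). All 103 and 580 of the 584 were well counted. The mean takes in both T2 and T3, so a variant could pass it through the time at which it was high. The calls of single variants given below come from this fit and are named as such, and p values over all 16000 stand beside them where a variant is described. The median log2 change was −0.12 over all variants in the main fit. TMM gave a median of 0.00 and the size factors of DESeq2 one of 0.01, and it was 0.15 with scaling to variants charged at position 5 and −0.58 with scaling to ASGV, and the whole distribution shifts with it. Calls of single variants moved with it, in fits added after seeing the data. In the fit of 6448, TMM called 206 higher and 209 lower, the size factors of DESeq2 226 and 125, charged scaling 687 and 115 and scaling to ASGV 0 and 3529. Without screen 1 that fit called 125 and 710, without screen 2 177 and 249 and without screen 3 16 and 209. Over all 16000, charged scaling called 99 higher and 1 lower and ASGV scaling 1 and 3073. The residue terms below are differences within a screen and do not move with the scaling.

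Residues were compared with an additive model. In each screen the log2 change of the 6260 well-counted variants was written as a sum of 1 term per residue and position, the terms of a position summing to 0, and limma tested each of the 62 terms over the 3 screens. It called 19 positive (30.6%) and 21 negative (33.9%). The share of the variance among variants that the model accounted for (R squared) was 0.205, 0.233 and 0.251 in screens 1 to 3. Without screen 1 it called 11 and 9, and without screen 3 11 and 11. The calls depended on which variants entered. With the minimum of 100 reads set on T1, a library outside the comparison, 11994 variants entered, 0 terms were called positive and 1 negative. With a minimum of 1000 reads on T1, chosen after seeing the data, it called 19 and 19.

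In the main fit position 4 held the highest and the lowest terms over the well-counted variants, with Met5 at 0.46 close to the highest. This ranking was not stable. Without screens 1 and 2, Met5 (0.49 and 0.50) lay above Gly4 (0.46 and 0.49). Without screen 3, Arg5 (0.46) lay above Gly4 (0.44). As plain means Gln5 (−0.34) lay below Glu4 (−0.33). Gly4, the native residue, had terms of 0.47, 0.41 and 0.51 in screens 1 to 3, a mean of 0.47 (SE 0.04, adjusted p = 0.000317, limma). Leu4 followed with 0.36 (SE 0.05), Trp4 with 0.28 (SE 0.04) and Phe4 with 0.22 (SE 0.04). These were large nonpolar side chains, unlike Gly, and all 3 were positive in every screen. With the minimum of 100 reads on T1, Gly4 had 0.20 (adjusted p = 0.0685) and Leu4 0.11 (adjusted p = 0.285), and with 1000 reads they had 0.54 and 0.46.

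The lowest terms at position 4 were those of Glu4, Arg4 and Lys4. Glu4 had −0.47, −0.34 and −0.38, a mean of −0.40 (SE 0.04, adjusted p = 0.000618, limma). Arg4 had −0.33 (SE 0.05), Lys4 −0.27 (SE 0.04) and Gln4 −0.20 (SE 0.04). Pro4 was also called, at −0.16 (SE 0.04), and so was Val4, at −0.11 (SE 0.04). Asn4 went the other way from Gln4, with 0.19 (SE 0.04) and a positive value in every screen. With the minimum of 100 reads on T1, Glu4 had 0.0011 (adjusted p = 0.997) and Arg4 −0.06 (adjusted p = 0.318), and with 1000 reads they had −0.54 and −0.35.

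At position 5, where the native residue is Val, Met5 had the highest term. It was 0.41, 0.38 and 0.60 in screens 1 to 3, a mean of 0.46 (SE 0.05, adjusted p = 0.000618, limma). Thr5 had 0.32 (SE 0.04), Ile5 0.30 (SE 0.06) and Val5 0.23 (SE 0.06). With the minimum of 100 reads on T1, Met5 had 0.17 (adjusted p = 0.151) and Thr5 0.05 (adjusted p = 0.435), and with 1000 reads they had 0.69 and 0.56. Leu5 was called at 0.20 (SE 0.07) but was −0.01 in screen 2. Arg5 and Lys5 were called at 0.39 (SE 0.05) and 0.28 (SE 0.08), over 14 and 31 well-counted variants of the 800 that carry each, so these terms describe only the few that were still well read at T2.

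The negative terms at position 5 were led by polar residues and Pro. Gln5 had −0.32 (SE 0.05), Asn5 −0.28 (SE 0.09), Ser5 −0.27 (SE 0.04) and Pro5 −0.26 (SE 0.05). Asn5 was 0.03 in screen 2 and negative in the others. With the minimum of 100 reads on T1, Gln5 had −0.10 (adjusted p = 0.258), Asn5 0.0045 (adjusted p = 0.989) and Ser5 −0.21 (adjusted p = 0.0357), the 1 term called there. With 1000 reads they had −0.23, −0.31 and −0.11, and Ser5 was not called (adjusted p = 0.139). At position 2 the terms were smaller. Leu2 had 0.21 (SE 0.04) and Phe2 0.15 (SE 0.04), against −0.22 (SE 0.04) for Glu2 and −0.15 (SE 0.04) for both Asp2 and Lys2.

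The classes of residues can be read the same way in the fit of 6448 variants. With Gly at position 4, 75 of 412 variants were called higher and 8 lower, beside 103 and 584 of all 6448. The Gly4 counts were 102 and 4 with TMM, 147 and 4 with charged scaling and 0 and 132 with scaling to ASGV, and without screen 3 they were 15 and 6. With a basic residue there (Lys, Arg or His), 0 of 696 were higher and 94 lower, and with an acidic residue 0 of 335 and 36. With Val, Ile, Leu or Met at position 5, 100 of 2765 were higher and 213 lower, so that 100 of the 103 variants called higher carried one of these residues. With Thr at position 5, 3 of 660 were higher and 37 lower. No variant with Cys, Ala, Ser, Gly, Pro, an aromatic, Asn, Gln, acidic or basic residue at position 5 was called higher, though TMM called 5 of them and charged scaling 55. With charged scaling 21 variants with a basic residue at position 4 were called higher and 17 lower, and with Val, Ile, Leu or Met at position 5 it was 516 and 30. These classes were chosen with results of the screens known, and their counts are descriptions.

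Gly4 and Ile5 occurred together in 40 variants, all well counted. Their median log2 change was 0.81, 0.36 and 0.65 in screens 1 to 3, against −0.10, −0.31 and −0.29 for all well-counted variants. Of the 40, 30 were called higher and 0 lower in the fit of 6448. Gly4 with Val5, the native pair, had medians of 0.68, 0.49 and 0.44 over 40 variants, of which 28 were called higher. Without screen 1 these calls numbered 18 and 13, without screen 3 9 and 6, and with scaling to ASGV 0 and 0. Gly4 with Met5 had 13 called higher of 40, Gly4 with Leu5 4 of 39 and Gly4 with Thr5 0 of 40. Leu4, the next residue by its term, had 0 of 40 called higher with Ile5, 1 of 40 with Val5 and 3 of 40 with Met5.

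The 20 variants with Thr3, Gly4 and Ile5, any residue at position 2, were picked out after their values were seen. All 20 were higher at T3 in every screen and all 20 were called higher in the fit of 6448, with mean log2 changes of 0.59 (DTGI) to 0.82 (HTGI). Without screen 1 the fit called 16 of them, without screen 3 6 and with scaling to ASGV 0. They held 1.35%, 1.53% and 1.69% of the reads at T3, against 0.8%, 1.06% and 0.968% at T2. Each of these means lay above the 0.47 of ASGV.

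VTGI was the most abundant variant at T3 by its mean. It had 1469.7, 2044 and 2153 reads per 1000000 at T3, against 954, 1223 and 1077 at T2. The 3 values at T3 lay above the 3 at T2. The log2 change was 0.79 (SE 0.10, adjusted p = 0.0723 over all variants and 0.0171 in the fit of 6448, edgeR).

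HTGI had 642, 820.4 and 897 reads per 1000000 at T3, against 375, 462 and 497 at T2. Its screens agreed more closely than those of VTGI, with log2 changes of 0.77, 0.83 and 0.85, and its adjusted p was 0.0723 over all variants (edgeR). Screens of ITGI differed more. It had 306, 316 and 469 reads per 1000000 at T3, against 138, 275 and 220.0 at T2, and its log2 change was 0.20 in screen 2 and above 1 in the others.

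PTFM, with Phe4 and Met5, had the highest log2 change among the variants called in the fit of 6448. It had 276, 221 and 241 reads per 1000000 at T3, against 153, 155 and 94.4 at T2, a log2 change of 0.90 (SE 0.17, adjusted p = 0.079 over all variants, edgeR). Its neighbour by class PTFT, Thr in place of Met, had 1126, 1123 and 1430.5 at T3, against 745, 736 and 838 at T2, a change of 0.66 (SE 0.10). Pro2 with Phe4 stood 0.36 (SE 0.06) above the additive model over 24 well-counted variants, with an adjusted p of 0.0526 (limma).

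The other abundant variants at T3 were SSGV, PSYM, MTYM and CTFT. SSGV had 1623, 1711 and 1970.4 reads per 1000000 at T3, against 907, 1580.0 and 1019 at T2. PSYM had 1547, 1775 and 1832 at T3, against 1294, 1333 and 1295 at T2. Neither passed over all variants (adjusted p = 0.0927 and 0.105, edgeR), and only SSGV did in the fit of 6448 (0.0335). The last of these, CTFT, had a change of 0.82 in screen 2 and of 0.08 in screen 1.

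Native sequences were also read in every screen. ASGV had 847, 707 and 558 reads per 1000000 at T3, against 483, 609 and 430.0 at T2, and the groups overlapped. Its log2 change was 0.47 (SE 0.13, adjusted p = 0.129 over all variants and 0.0489 in the fit of 6448, edgeR). RSGV, the yeast sequence, had 701, 823 and 811 at T3, against 434, 586 and 512 at T2, a change of 0.61 (SE 0.11, adjusted p = 0.0773 and 0.0171). ASGM, the Arabidopsis sequence, had 743, 859 and 938 at T3, against 616, 558 and 724 at T2, with adjusted p of 0.118 and 0.0556.

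Single substitutions of ASGV were read at each position. At position 5, ASGI had a mean log2 change of 0.65 (SD 0.45, n = 3 screens), ASGL of 0.40 (SD 0.22), ASGT of −0.10 (SD 0.25), ASGY of −0.31 (SD 0.23) and ASGF of −0.62 (SD 0.14). In the fit of 6448, ASGI was called (adjusted p = 0.0249, edgeR) and ASGF was not (0.156). Of the 20, 10 were well counted. ASGE, ASGD, ASGK and ASGR had 6 to 126 reads at T2 and gave no usable change.

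At position 4, with Ser3 and Val5 kept, 13 of 20 were well counted. ASWV had 0.40 (SD 0.33), ASIV 0.27 (SD 0.46), ASLV 0.23 (SD 0.21), ASFV −0.11 (SD 0.38), ASVV −0.73 (SD 0.23) and ASHV −1.33 (SD 0.38). ASSV was lowest at −2.04 (SD 1.49, adjusted p = 0.0397 in the fit of 6448, edgeR). It had 105, 199 and 26 reads at T3, against 526, 359 and 332 at T2. It thus entered that fit through T2, and its p value is a description. ASAV had 6.34, 7.63 and 26.7 reads per 1000000 at T3, against 1.81, 28.0 and 6.21 at T2, so that it was higher in screens 1 and 3 and lower in screen 2.

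At position 2, with Ser3, Gly4 and Val5 kept, all 20 residues were well counted and had mean changes above 0, from 0.16 (GSGV) to 0.72 (ISGV). Of these, 11 were called higher in the fit of 6448, 0 lower, and 15 were higher in every screen. That fit called 18 without screen 2, 2 without screen 1 or screen 3, and 0 with scaling to ASGV. The screens differed. The median over the 20 was 0.80, 0.12 and 0.54 in screens 1 to 3. For the 20 with Thr3, Gly4 and Met5 it was 0.06, 0.69 and 0.28, so that screen 2 was the lowest for the Ser3-Val5 set and the highest for the Thr3-Met5 set.

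The lowest variants were present at few reads. They were taken as well counted by T2, the side on which they were higher. ASAC and NTGS had under 200 reads in every T3 library, so they met the mean of 200 reads through T2. Their p values in the fit of 6448 are descriptions for this reason. How much of the fall comes from this choice was not tested. ASAC had 1.16, 3.16 and 0.963 reads per 1000000 at T3, against 10.9, 15.2 and 4.65 at T2. That was 32, 139 and 21 reads at T3, against 264, 931 and 134 at T2. Each screen was lower at T3, and the log2 change was −2.58 (SE 0.45, adjusted p = 0.0723 over all variants and 0.0171 in the fit of 6448, edgeR).

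NTGS had 1.01, 2.62 and 1.38 reads per 1000000 at T3, against 4.65, 15.2 and 6.42 at T2, a log2 change of −2.32 (SE 0.42). It carries Gly4 but Ser5. TSWF, with aromatic residues at positions 4 and 5, had 8.91, 10.1 and 5.83 at T3, against 38.0, 37.1 and 29.7 at T2, a change of −2.11 (SE 0.37). The others of the 8 lowest were ASPI, LSHS, RTIS, WSQT and ETPT, with changes of −2.19 to −2.05. None of the 8 passed over all variants, with adjusted p of 0.0723 to 0.121 (edgeR).

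Some variants read more often were also lower at T3, by less. QTQC had 67.0, 62.5 and 62.1 reads per 1000000 at T3, against 174, 159 and 117 at T2, a log2 change of −1.22 (SE 0.19). PTCV had 133, 119 and 114 at T3, against 236, 244 and 223 at T2, a change of −0.94 (SE 0.14). VSGY, which differs from VSGV at position 5, had 118, 92.9 and 202 at T3, against 216, 201 and 333 at T2, a change of −0.90 (SE 0.15). The values at T3 lay below those at T2 within every screen. All 3 had an adjusted p of 0.0723 over all variants and 0.0149 in the fit of 6448 (edgeR).

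Pairs of residues were asked whether they departed from the sum of their own terms. Of 854 pairs with at least 10 well-counted variants, limma called 2 above (0.234%) and 9 below (1.05%), and 217 had an unadjusted p under 0.05. Gly4 with Val5 was 0.40, 0.36 and 0.31 above in screens 1 to 3, a mean of 0.36 (SE 0.04, adjusted p = 0.0453). Thr4 with Gln5 was 0.34 above (SE 0.04) over 10 variants. Gly4 with Ile5 was 0.37 above (SE 0.06), with an adjusted p of 0.0526.

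Among the 9 pairs below were Gly4 and Leu4 with other residues, and pairs with Cys or Pro2. Gly4 with Gln5 was −0.55, −0.51 and −0.72 in screens 1 to 3, a mean of −0.60 (SE 0.05, adjusted p = 0.0310, limma). Leu4 with Tyr5 had −0.52 (SE 0.04) and Leu4 with Asn5 −0.42 (SE 0.05). Cys2 with Cys4 had −0.52 (SE 0.05), Cys2 with Cys5 −0.42 (SE 0.05) and Pro2 with His4 −0.48 (SE 0.04). No pair was called when screen 1 or screen 3 was left out, and 1 was called with the minimum of 1000 reads on T1.

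Ser3 and Thr3, the only residues at the phosphorylated position, had residue terms that were not called. Among 2463 pairs of variants that differ only there, limma called 0 (background 0%), with 269 at an unadjusted p under 0.05. In simulated pairs the test recovered 0% of differences of 1 on log2 and 70% of those of 2. The 0 calls therefore leave differences of single pairs of about 1 or less undecided. Thr3 exceeded Ser3 by a mean of 0.05, 0.15 and 0.05 in screens 1 to 3 over all pairs. By residue at position 4 the mean difference was largest for Pro4 (0.44, SD 0.10, 68 pairs), Gln4 (0.40, SD 0.04, 68 pairs) and Arg4 (0.37, SD 0.13, 49 pairs). It was below 0 for Gly4 (−0.09, SD 0.22, 169 pairs), Ile4 (−0.09), Leu4 (−0.08), Trp4 (−0.05), Val4 (−0.02) and Phe4 (−0.01). By residue at position 5 it was 0.36 for Thr5 (SD 0.20, 261 pairs) and −0.13 for Leu5 (SD 0.04, 269 pairs). The NTGS-NSGS pair had −2.69, −2.15 and −2.34 and the ATAC-ASAC pair 3.76, 1.51 and 1.47, both with an adjusted p of 0.313.

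The pool was more uneven at T3 than at T2 in each screen. The effective number of variants, the exponential of the Shannon entropy of the read fractions, was 3797, 3553 and 3319.6 at T3 in screens 1 to 3, against 4325, 4278 and 3886 at T2. The difference was −607 (SD 104, n = 3 screens). The 100 most abundant variants held 9.80%, 11.3% and 10.8% of the reads at T3, against 8.20%, 8.39% and 8.31% at T2. The differences had the same sign in all 3 screens, for which the exact sign permutation test gives p = 0.25 two-sided, the smallest that 3 screens allow.

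By class at position 5, variants with Val, Ile, Leu or Met held 61.7%, 62.2% and 65.7% of the reads at T3, against 58.6%, 60.4% and 60.8% at T2 (mean difference 3.26, SD 1.57, exact p = 0.25). The share of variants with an aromatic residue there was 4.83%, 3.80% and 3.67% at T3, against 5.44%, 4.83% and 4.71% at T2. Charged residues there held 0.861%, 0.979% and 0.514% at T3, against 1.14%, 1.08% and 0.624% at T2. The first class was higher at T3 in every screen and the other two lower.

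The 9740 variants under the minimum held 2.05%, 2.73% and 1.20% of the reads at T3, against 2.89%, 2.89% and 1.23% at T2. Their median log2 change was −0.30 in screen 1 and 0.15 and 0.13 in screens 2 and 3, so that rarely read variants moved in opposite directions between screens. At the edge of the minimum, 13 variants had exactly 100 reads in their lowest T2 library, with mean log2 changes of −1.14 to 0.50 (median −0.53). The 13 with exactly 99 had −1.25 to 0.52 (median −0.22). Of the well-counted variants, 111 had under 1% of the summed reads of the variants 1 base away at T2, and the part of misassigned reads was not tested.

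The late change was set against the first interval, T1 over T0, which shares no library with it. That first interval also spans the move from raffinose to glucose. Variants whose mean log2 change was above 2 in the first interval (618) had a median late change of 0.06, −0.01 and 0.06 in screens 1 to 3. Those between 1 and 2 (3316) had −0.04, −0.26 and −0.19, and those between 0 and 1 (1340) −0.42, −0.68 and −0.66. Between −1 and 0 (920) it was −0.74, −0.50 and −0.49. Between −2 and −1 (1165) it was −0.40, −0.04 and −0.14, and between −3 and −2 (3617) −0.28, 0.13 and 0.07. The 5024 that had lost over 3 had −0.28, 0.19 and 0.20. Of these 5024, 69 were well counted, and of the 3617, 291, against 3304 of the 3316. Among the groups above −1, late loss was largest between −1 and 1. The lowest groups rest largely on rarely read variants, so their late loss cannot be ranked against the others. The groups below −2 had medians of opposite signs between screens.

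The size of the change per interval shrank over the course. In well-counted variants the median absolute log2 change was 1.48 (SD 0.20, n = 3 screens) from T0 to T1, 0.76 (SD 0.04) from T1 to T2 and 0.38 (SD 0.11) from T2 to T3. Over all variants it was 2.30, 1.63 and 0.39. Of these variants, 9740 were under 100 reads at T2 in some screen and had little room to fall further, which limits the last value. The values of both sets were not divided by the population doublings of each interval. The first interval also spans the move from raffinose to glucose. From T2 to T3, 755 of the 6260 were higher in all 3 screens (12.1%) and 2593 lower (41.4%). Of all 16000, 1889 were higher in all 3 screens and 3663 lower. The split between higher and lower moves with the scaling. By edgeR's log2 change, 1787 of the 6260 lay above 0 and 4473 below with total reads. TMM gave 2465 and 3795, and charged scaling 3129 and 3131.

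The difference between intervals was tested in a fit of T0, T1, T2 and T3 with the screen as a block (edgeR). T0 was in raffinose and the other times in glucose. T3 against T2 lay above T1 against T0 for 8984 variants (56.1%) and below it for 4651 (29.1%), and with TMM the split was 5109 above and 5991 below. It lay above T2 against T1 for 2762 (17.3%) and below it for 96 (0.6%), a comparison in which T2 is shared. With TMM the second split was 478 above and 2351 below, without screen 1 it was 23 and 2, without screen 2 162 and 47 and without screen 3 1 and 0.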

How the data were processed

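The authors amplified the variable codons from yeast plasmids, sequenced them on an Illumina NovaSeq and deposited raw read counts per variant for 3 screens. The program that assigned reads is not given in the sources used here, nor is any removal of PCR duplicates, so reads need not be independent molecules. Depth was 21795852 to 61265998 reads per compared library. 3 count columns of a time before T0, whose name does not match the labels of 1 sample in every screen, were not used, and neither were the galactose columns.

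Counts were tested with edgeR 4.0.16 (library sizes equal to total reads, screen as a block, Benjamini-Hochberg over all variants, threshold 0.05). Residue terms, pairs and Thr3 minus Ser3 differences were tested with limma 3.58.1 on 1 value per screen, with 0.5 reads added, over variants with at least 100 reads at T2. DESeq2 1.42.0 was an alternative, with R 4.3.3 and Python 3.11.15. A log2 SE of edgeR is the change divided by the root of its F value. The screen pairs the samples because T3 was diluted from T2, and their deviations from the time means correlated with 0.448, 0.543 and 0.521 within a screen.

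The variants named are those that the paper singles out, those among the 8 highest or lowest called, the 5 most abundant at T3 or the 12 lowest p, and the single substitutions of ASGV. As 0 passed, the 8 were taken from the filtered fit after its values were seen, and the 12 lowest p were added then too. Members, lists and tests were chosen with earlier results of these data known. In simulated data, edgeR recovered 61% of 100 changes of 1 on log2 and 94% of those of 2 over 16000 variants, and called 10 unchanged ones. In the filtered fit (6343 simulated variants) it recovered 71.7% and 95.8% and called 13 unchanged. The counts simulated for edgeR had the same mean fraction of a variant in every screen, and a spread taken from edgeR's trend alone. They lacked the differences of single variants between screens and in spread, so these recovered shares need not hold for the real data. For Thr3 minus Ser3 pairs, limma recovered 0% of changes of 1 and 70% of those of 2.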

Additional observations from a re-analysis of the deposited data

Results flagged for a closer look

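The late change differed from the earlier changes by edgeR's test of the difference itself, in a fit of T0, T1, T2 and T3 with the screen as a block. T0 was in raffinose, so T1 against T0 also spans a change of carbon source. Of the 5024 variants that had lost over 3 on log2 from T0 to T1, 69 were well counted at T2. The rest had little room for a second fall of that size, so a positive difference is for them no sign of a late gain. T3 against T2 exceeded T1 against T0 for 8984 variants (56.1%) and fell below it for 4651 (29.1%), and with TMM the split was 5109 and 5991. For ASGV the difference was −2.08 on the log2 scale, with a gain of 2.53 in the first interval. T3 against T2 exceeded T2 against T1 for 2762 variants (17.3%) and fell below it for 96 (0.6%), with TMM 478 and 2351, and 1 to 209 variants in all were called when a screen was left out. T2 enters both sides of that second difference, so an error in T2 moves it as well. ASGV differed by −0.20 there (adjusted p = 0.583, edgeR).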

How the results depend on the processing

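Over all variants, where the main count was 0, edgeR called 100 with scaling to variants charged at position 5 (99 higher, 1 lower), 3074 with scaling to ASGV (1 higher, 3073 lower) and 3 with no replicate block, and DESeq2's Wald test called 1415. With means of at least 100, 200, 500 and 1000 reads it called 106, 687, 732 and 504, and 0 at 10 and 50. Leaving out a screen gave 0 to 282. At a mean of 200 (687), TMM gave 415, DESeq2's size factors 351, charged scaling 802 and ASGV 3529, and the fits without screens 1 to 3 gave 835, 426 and 225. Among well-counted variants these counts were 98, 2875, 3 and 1324, then 683 at a mean of 200, and 0 to 259 without a screen. Residue terms, 40 in the main fit, gave 1 with a minimum of 100 reads on T1 (Glu4 at 0.0011 and Asn5 at 0.0045 then lay just above 0), 25 as plain means and 20 to 34 without a screen. Pair terms, 11 in the main fit, gave 2 and 1 with minimums of 100 and 1000 reads on T1 and 0 to 10 without a screen. T3 against T2 minus T2 against T1, 2858 calls, gave 0 with no replicate block and 1 to 209 without a screen. Its split was 2762 higher and 96 lower, against 478 and 2351 with TMM, and that of T3 against T2 minus T1 against T0 was 8984 and 4651, against 5109 and 5991. With scaling to ASGV, ASGM (−0.044), FTGL (−0.17), LSGV (−0.12), LSGM (−0.021), ASLV (−0.23), PSYM (−0.076), MTYM (−0.036) and CTFT (−0.091) turned below 0. ASFV turned to 0.017 with TMM, 0.023 with DESeq2's size factors, 0.16 with charged scaling and 0.10 without screen 2. ASEV turned to 0.12 with charged scaling and ranged over −0.55 to 0.28 without a screen, and ASAV ranged over −0.10 to 1.96. The cause was not tested. Of 875 values of named variants, terms and classes, 17 were marked as reversed and the other 858 were not. The read shares of classes at position 5 were compared by their SD over screens and not by sign, so the mark could not apply to them. The share with Thr at position 5 changed by a mean of 0.66% of the reads over the 3 screens, and by −0.20% without screen 2.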
